A study of Mus musculus with 4 samples.

Results

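The subject here is the open chromatin of 9 genes that move calcium in the cardiac muscle cell, in newborn mouse hearts with and without retinoid X receptors. Members were all regions with an ATAC-seq peak in at least 1 of 4 libraries that overlapped Ryr2, Atp2a2, Pln, Sln, Casq2, Trdn, Cacna1c, Slc8a1 or Jph2, each gene body taken with 20 kb on either side (GRCm38). There were 136 such regions among 53140 in the genome, and 8 of the 9 genes held at least 1. A region is a stretch in which peaks of any libraries overlap by at least 1 bp. "Called" means that the authors' peak caller listed a peak of that library there.

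ATAC-seq cuts accessible DNA with the transposase Tn5. Nuclei came from whole hearts of C57BL/6 mice at postnatal day 0, 1 heart per library. WT 1 and WT 2 were wild type. The hearts labelled edKO, edKO 1 and edKO 2, lacked RXRa and RXRb (RXRab-/-) in cardiomyocytes, so the other cells of these hearts still carry both receptors. The labels name neither the Cre driver, nor any allele that controls and mutants share, nor the sex of the hearts. RXR proteins are nuclear receptors that bind DNA as partners of other receptors.

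At each heartbeat the L-type channel (Cacna1c) lets calcium enter across the surface membrane, which opens the ryanodine receptor (Ryr2) in the sarcoplasmic reticulum and releases stored calcium. Calsequestrin (Casq2) binds calcium inside the store, triadin (Trdn) ties it to the ryanodine receptor, and junctophilin 2 (Jph2) holds the store membrane next to the surface membrane. For relaxation the pump SERCA2 (Atp2a2), held back by phospholamban (Pln) and, in the atria, by sarcolipin (Sln), refills the store, and the sodium-calcium exchanger (Slc8a1) moves calcium out of the cell.

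The libraries differed as a whole. The lists held 35279 and 38809 peaks in WT 1 and WT 2 and 27473 and 27142 in edKO 1 and edKO 2, and among the 10000 strongest peaks of each list the median fold over background stood at 10.8, 11.5, 10.2 and 7.61 in the same order. The fold and −log10 p of a peak, both as the authors gave them, scale with depth and background. They are given below as levels within a library, in the order WT 1, WT 2, edKO 1 and edKO 2 unless stated, and not as differences between hearts. Gene starts of 7 of 8 cardiomyocyte markers were called in all 4 libraries (all but Myl7, an atrial gene). Starts of the 4 blood markers were called in none. Of 4 markers each, endothelial starts were called for 2, 3, 3 and 3 in WT 1, WT 2, edKO 1 and edKO 2, fibroblast starts for 1 in each library (Tcf21 in the WT hearts and Col1a1 in the edKO hearts), smooth muscle starts for 2, 2, 1 and 1 and skeletal muscle starts for 1, 1, 0 and 0. The summed fold enrichment at these starts was 52.4, 59.7, 58.9 and 47.6 for cardiomyocyte markers, 18.01, 23.6, 22.1 and 16.7 for endothelial, 5.78, 4.64, 3.56 and 3.39 for fibroblast, 9.34, 11.9, 4.93 and 4.45 for smooth muscle and 5.28, 5.19, 0 and 0 for skeletal muscle markers. Their part in the results below was not tested. The starts of Rxra and Rxrb were called in all 4 libraries, which does not check the genotype, because the labels do not name the deleted exons. Fewer cells of a type and less open DNA per cell cannot be told apart in whole hearts.

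To show the DNA at the promoters, the 250 bases before the gene start are printed for 5 members. They run 5′ to 3′ on the gene's own strand and come from RefSeq (GRCm38.p6). The stretches of Ryr2, Pln and Casq2 extend in part beyond the called region. At Pln the TATAAA and TTATC matches lie in that outer part. Capitals mark matches, on either strand, to the nuclear receptor core motif AGGTCA (Ryr2 and Jph2), to GATAA, the word bound by GATA factors (Pln and Slc8a1), to GGGCGG, an SP1 word (Jph2), and to TATAAA (Pln). Casq2 is shown because its start was the only one listed in 3 libraries.
Ryr2, chr13:12106946-12107195, minus strand: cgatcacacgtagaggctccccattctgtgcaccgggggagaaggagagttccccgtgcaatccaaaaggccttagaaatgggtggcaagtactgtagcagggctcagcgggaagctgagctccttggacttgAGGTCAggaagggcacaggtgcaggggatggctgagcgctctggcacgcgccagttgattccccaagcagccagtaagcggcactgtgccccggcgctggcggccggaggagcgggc
Jph2, chr2:163397994-163398243, minus strand: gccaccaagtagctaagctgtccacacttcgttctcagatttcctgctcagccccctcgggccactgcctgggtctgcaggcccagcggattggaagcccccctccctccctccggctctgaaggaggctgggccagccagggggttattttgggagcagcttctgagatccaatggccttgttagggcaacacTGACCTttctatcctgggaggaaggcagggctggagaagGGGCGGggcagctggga
Pln, chr10:53337436-53337685, plus strand: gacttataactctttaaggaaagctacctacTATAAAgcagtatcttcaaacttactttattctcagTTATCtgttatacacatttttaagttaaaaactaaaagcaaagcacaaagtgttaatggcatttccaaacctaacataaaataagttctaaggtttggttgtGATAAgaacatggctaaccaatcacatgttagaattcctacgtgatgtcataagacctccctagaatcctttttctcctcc
Slc8a1, chr17:81738388-81738637, minus strand: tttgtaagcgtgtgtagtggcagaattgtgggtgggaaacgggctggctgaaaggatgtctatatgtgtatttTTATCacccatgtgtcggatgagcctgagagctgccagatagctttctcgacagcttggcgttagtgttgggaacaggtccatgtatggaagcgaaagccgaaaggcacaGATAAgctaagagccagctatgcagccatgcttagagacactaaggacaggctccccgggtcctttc
Casq2, chr3:102086165-102086414, plus strand: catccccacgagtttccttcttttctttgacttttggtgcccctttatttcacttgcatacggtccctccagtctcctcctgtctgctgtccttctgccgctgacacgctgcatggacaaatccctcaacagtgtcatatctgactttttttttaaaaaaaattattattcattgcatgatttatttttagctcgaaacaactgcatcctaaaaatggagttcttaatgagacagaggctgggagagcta

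The printed stretches differ in base composition, with 63.2% G and C before Ryr2, 62.0% before Jph2, 50.4% before Slc8a1, 41.6% before Casq2 and 32.8% before Pln. With the 50 bases after the start included, 6 members had 9 start windows in RefSeq (Ryr2, Pln, Casq2, Slc8a1, 3 of Cacna1c and 2 of Jph2). Atp2a2, Sln and Trdn had none, so their gene ends were used in place of the start. The core motif AGGTCA was in 3 of the 9 windows, that of Ryr2 at position −117 from the start and both of Jph2, which overlap, against 16.3% of all 32817 windows in the table. Its repeat with 1 base between (DR1, AGGTCANAGGTCA), the form that RXR binds together with PPAR, was in 0 of the 9 and in 0.0396% of all windows. GATAA was in 2 of 9 against 25.4%, GGGCGG in 4 of 9 against 35.6%, TATAAA in 1 of 9 against 13.6% and the TEAD word CATTCC in 0 of 9 against 14.7%. The patterns used for the MEF2 site and the CArG box of SRF were matched in 0 of 9, against 0.558% and 1.63%. The letters of these patterns are not given here. The result holds for them alone and does not show that the windows, that of Casq2 included, lack such sites. The 6 matches to GGGCGG in 1 window of Cacna1c overlap in part, in a stretch that is 82.8% G and C. A match describes the letters and not a bound factor.

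Of the 9 gene starts, 6 were called in all 4 hearts, that of Casq2 in 3, that of Trdn in the WT hearts alone, and that of Sln in none. By the mean percentile of −log10 p within the lists the highest was that of Atp2a2, the calcium pump (92.6), a region of 1048 bp over its end at the higher coordinate (chromosome 5, 122501817 to 122502864), with −log10 p of 86.3, 61.5, 67.3 and 52.3. It ranked above 89.1% of the peaks of WT 2, its lowest rank, and above 94.4% of those of edKO 2, its highest. The start of Cacna1c, the pore of the L-type channel (chromosome 6, 119196359 to 119196925), stood at −log10 p of 73.9, 79.3, 53.75 and 25.3. A further start within Cacna1c (119108464 to 119109044), the one rich in G and C, was also called in every heart but was weaker, at 12.0, 5.91, 8.98 and 7.38. The remaining RefSeq start of Cacna1c, farther inside the gene (window at 118757975 to 118758224), overlapped no region in any heart.

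The start of Jph2 (chromosome 2, 163397836 to 163398464) stood at 45.4, 70.4, 40.3 and 31.0, and that of Slc8a1 (chromosome 17, 81738203 to 81738727) at 44.5, 76.2, 23.5 and 19.0. The start of Ryr2 (chromosome 13, 12106628 to 12107152) stood at 36.2, 47.1, 39.6 and 16.1. Within each list the main start of Cacna1c ranked above 91.9, 92.5, 89.7 and 83.2% of the peaks, that of Jph2 above 84.7, 91.0, 85.05 and 87.0%, that of Slc8a1 above 84.3, 92.1, 73.75 and 77.3% and that of Ryr2 above 80.5, 85.05, 84.8 and 73.2%.

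**Figure D1:**
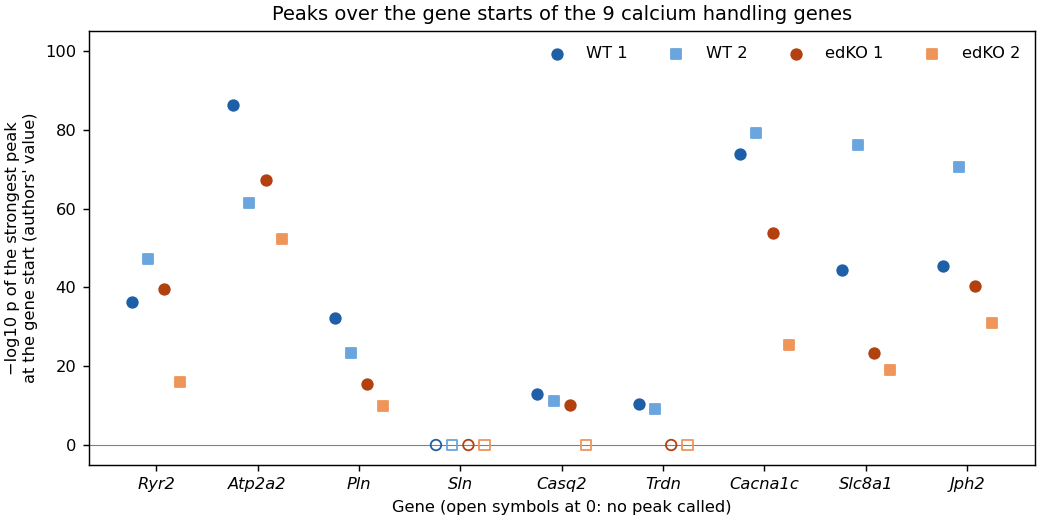
Authors' −log10 p of the strongest peak over the start of each of the 9 genes (vertical axis), 1 symbol per heart (blue WT, orange edKO; open symbols at 0 mean that no peak was called). The starts of 6 genes carry 4 filled symbols, Casq2 lacks edKO 2, Trdn lacks both edKO hearts and Sln has none.

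The start of Pln, the brake on the pump (chromosome 10, 53337531 to 53337840), was called in all hearts over a region of only 310 bp, at −log10 p of 32.3, 23.5, 15.5 and 9.88. The pileup at the summit, recovered from the fold and p, was 63, 47, 30 and 19 over local backgrounds of 8.86, 7.02, 4.54 and 3.08. At the Atp2a2 start it was 137, 109, 96 and 82.

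Casq2 and Trdn act together at the mouth of the calcium store. The start of Casq2 (chromosome 3, 102086195 to 102086618) was called in WT 1 (13.0), WT 2 (11.05) and edKO 1 (10.1), with summit pileups of 29, 29 and 20. No peak was listed in edKO 2.

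At the low-coordinate end of Trdn, a region of 253 bp (chromosome 10, 33083348 to 33083600) was called at −log10 p of 10.3 and 9.20 in the WT hearts, with summit pileups of 16 and 15, and in neither edKO heart. A second region, 45 bp further out (33082997 to 33083302), was called in WT 1 (14.4), WT 2 (9.99) and edKO 1 (8.21). The WT-only call depends on how peaks are joined. With windows of 150 bp on each side of the summits the 2 regions become 1, which was called in WT 1, WT 2 and edKO 1.

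Sln, the atrial counterpart of Pln, had no region within 20 kb in any list (gene at chromosome 9, 53850251 to 53853849). The nearest regions lay 143637 bp away at an end of Rab39, called in all 4 hearts, and 137191 bp away on the other side, called in the WT hearts alone at −log10 p of 6.31 and 4.71. Loci without a region were common among short genes: with the same flank, 37.2% of the 7742 protein-coding genes of at most 10 kb had none, as did 20.9% of all 21631.

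The cardiac genes were set beside the relatives that serve the same role in skeletal muscle, a pairing chosen after their values had been seen. The start of Ryr1 and that of Atp2a1 were called in 0 of 4 libraries, where Ryr2 and Atp2a2 were called in 4. Casq1 was called in edKO 2 alone, at −log10 p of 7.77. Jph1 was the exception, called in all 4 at 68.7, 79.4, 64.6 and 27.1, higher than Jph2 in WT 1, WT 2 and edKO 1 and lower in edKO 2. For Atp2a2 and Jph1 the gene ends were used, and for the other 6 genes the RefSeq start windows. The comparison covers starts alone. With the 20 kb flanks, Atp2a1 and Casq1 each held 7 regions, 3 of them called in all 4 hearts. Ryr1 held 12, of which 0 were called in all 4, and Jph1 held 4, of which 1 was.

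**Figure D2:**
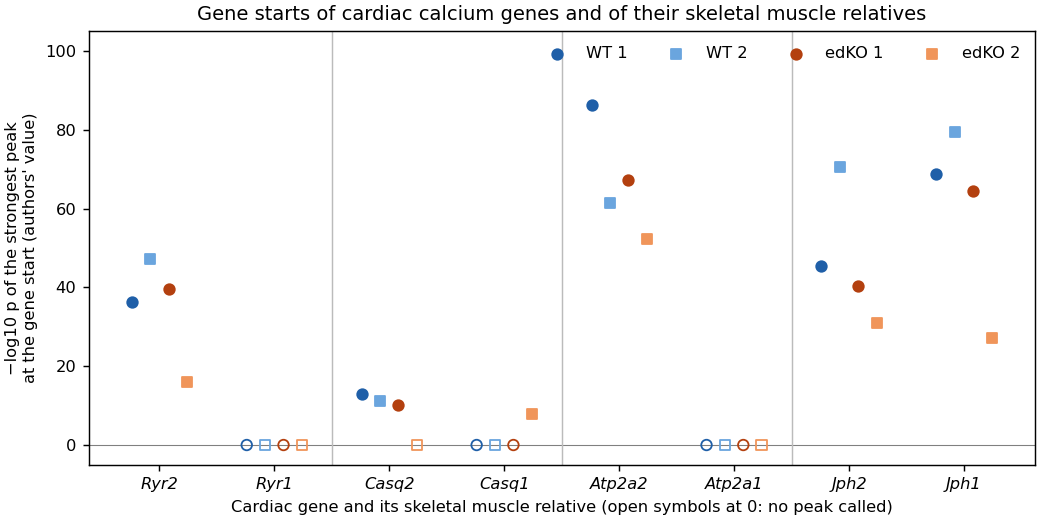
Authors' −log10 p of the strongest peak at the gene start (vertical axis) for 4 cardiac calcium genes and their skeletal muscle relatives, 1 symbol per heart, with open symbols at 0 where no peak was called. Ryr1 and Atp2a1 have no filled symbol, Casq1 has 1, and Jph1 has 4 between 27.1 and 79.4.

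Over all 136 regions, starts included, 31 (22.8%) were called in all 4 hearts, against 31.2% of all regions in the genome, and 69 (50.7%) were called in 1 library only, against 39.3%. By gene the regions numbered 38 at Cacna1c, 31 at Ryr2, 22 at Slc8a1, 14 at Jph2, 11 at Atp2a2, 8 at Casq2 and 6 each at Pln and Trdn. Those called in all 4 numbered 9, 4, 3, 5, 3, 2, 4 and 1 in the same order. The genes differ greatly in length. Per 100 kb, Jph2 held 13.8 regions, Pln 12.4, Atp2a2 12.4 and Casq2 7.99, the large genes Cacna1c, Slc8a1 and Ryr2 held 5.85, 5.43 and 5.22, and Trdn, with 433.2 kb of locus, held 1.39. The median over protein-coding genes with the same flank was 3.69.

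**Figure D3:**
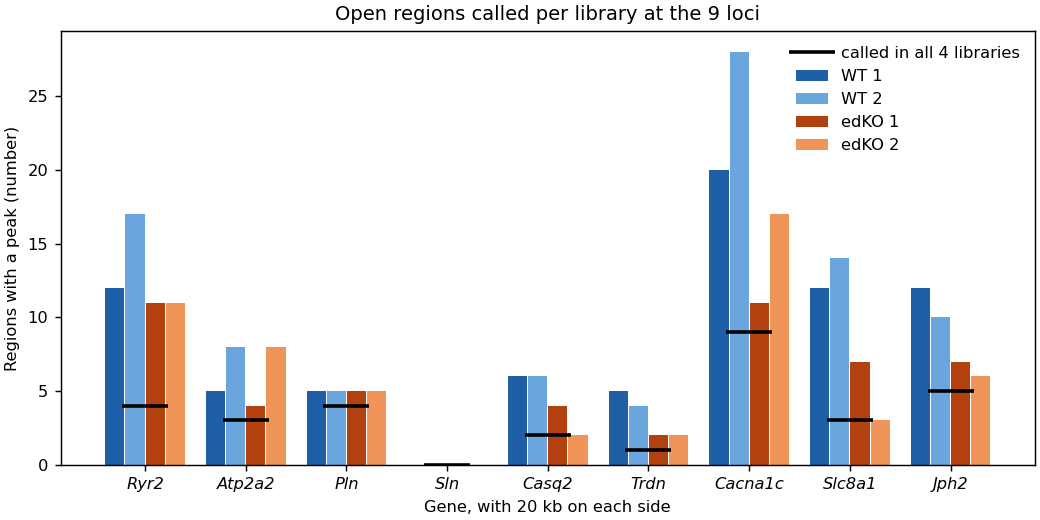
Number of regions with a peak (vertical axis) at each gene with 20 kb on each side, 1 bar per heart, with a black line at the number called in all 4. Pln has 5 regions in every heart, Cacna1c runs from 11 (edKO 1) to 28 (WT 2), and Sln has none.

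At Pln, Casq2 and Trdn a distal region had a higher −log10 p than the start in every heart that called the start. At Atp2a2, Cacna1c, Ryr2 and Slc8a1 all distal regions called in all 4 hearts stood below the main start in each heart. At Jph2 a distal region exceeded the start in edKO 1 alone. The strongest region at Pln lay 12485 bp outside the gene, before its start (chromosome 10, 53324576 to 53325201). Its fold enrichment was 14.8, 16.6, 12.4 and 7.83, with −log10 p of 86.7, 91.5, 35.7 and 18.1, and in every heart these exceeded the values at the Pln start itself. Another lay 2020 bp before the gene (53335279 to 53335666), at −log10 p of 23.4, 25.7, 17.8 and 11.0. Pln and all its regions lie between the ends of another gene, Cep85l. These regions therefore cannot be ascribed to 1 of the genes by position. Pln was also the gene with the most even calls, with 5 regions in each heart and none that was WT-only or edKO-only.

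Atp2a2 had 2 strong regions beyond its higher end, 8368 bp (122510593 to 122511228) and 18404 bp (122520629 to 122521523) away from it, called in every heart. The nearer stood at −log10 p of 31.3, 39.9, 36.45 and 27.6, and the farther at 56.2, 63.3, 29.4 and 26.3. With 5, 8, 4 and 8 regions called, Atp2a2 had overlapping counts in the 2 groups and no WT-only region.

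Jph2 carried 4 regions inside the gene that were called in all 4 hearts. The strongest (163353692 to 163354390) lay 43.95 kb into the gene, at −log10 p of 31.7, 53.3, 48.5 and 24.1. The one 5.33 kb into it (163392449 to 163392878) stood at 39.05, 41.3, 40.1 and 12.3. In Casq2 the strongest region was not the start but one 13.3 kb into the gene (102099223 to 102100269), called in all 4 hearts at 30.3, 31.4, 18.9 and 16.4.

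In Cacna1c the strongest region besides the start lay 56.7 kb into the gene (119139368 to 119140121), at 36.7, 51.3, 26.2 and 13.1. A region 21.0 kb into it (119174985 to 119175836) overlapped an end of the neighbouring gene Dcp1b and cannot be ascribed to 1 of them by position. Dcp1b runs from there past the Cacna1c start, so the main start region lies inside Dcp1b as well. In Ryr2 a region 2.45 kb into the gene (12104291 to 12104693) followed the start in strength, at 31.4, 29.1, 16.7 and 7.31. Trdn had 1 region in all 4 hearts (33256172 to 33256664), 172.9 kb from the low-coordinate end, at 25.25, 25.6, 14.3 and 6.04.

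**Figure D4:**
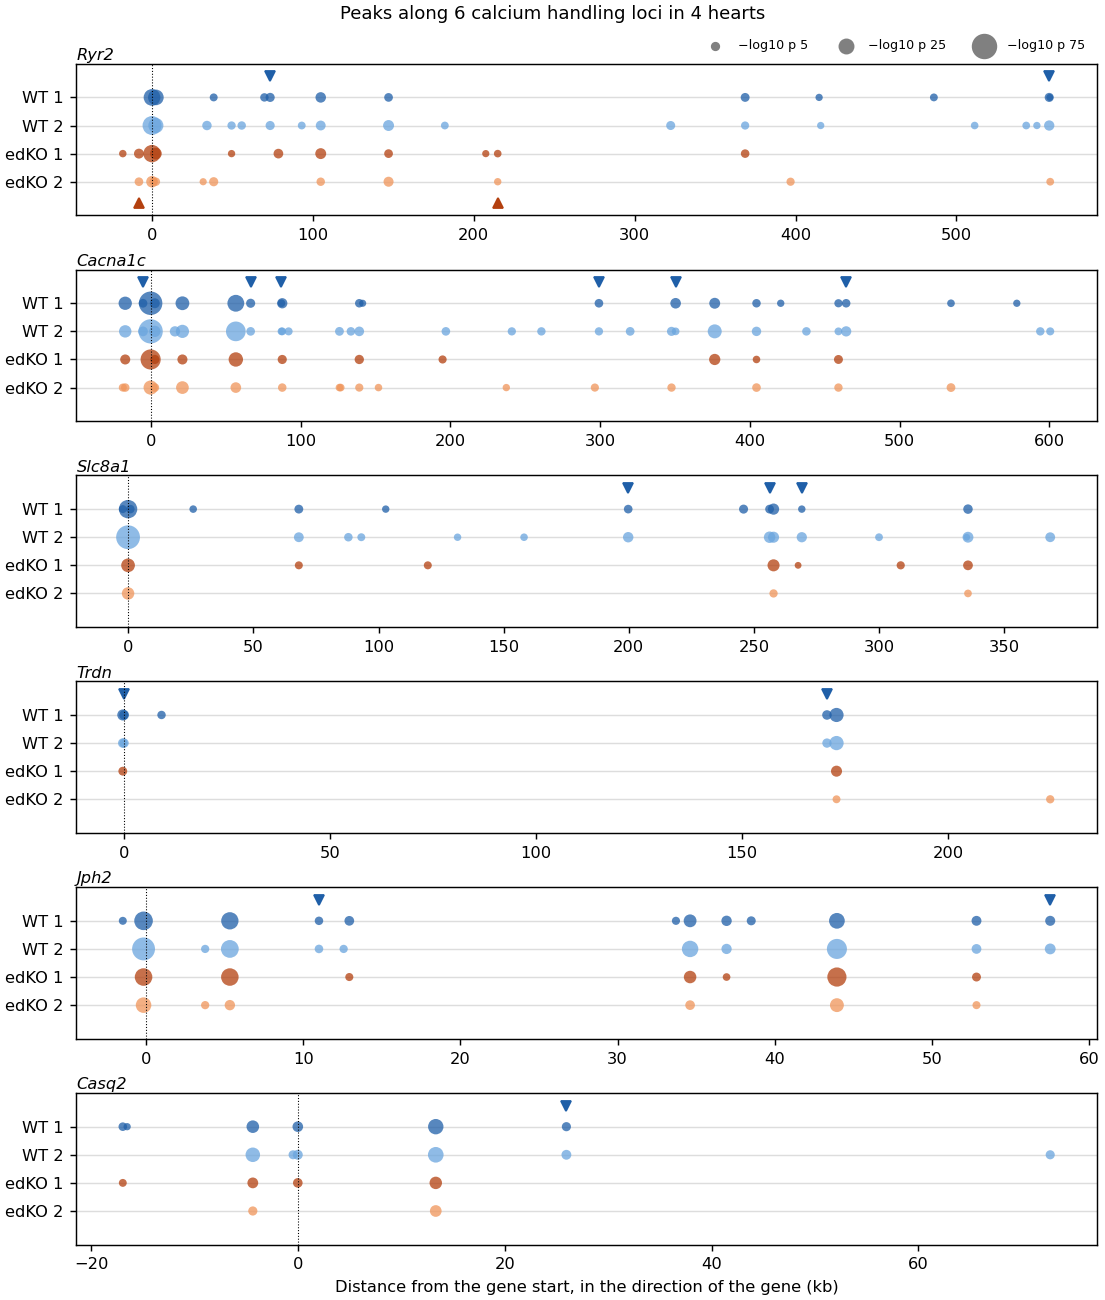
Peaks along 6 loci by distance from the gene start in kb (for Trdn, the low-coordinate gene end), 1 row per heart, with circle area growing with the authors' −log10 p. Triangles above mark regions called in both WT hearts alone and triangles below those called in both edKO hearts alone, of which Ryr2 has 2 and the other 5 genes none.

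The WT hearts had more called regions at these loci than the edKO hearts. The counts were 77, 92, 51 and 54, so the groups did not overlap, with means of 84.5 ± 10.6 (SD, n = 2) and 52.5 ± 2.12 (SD, n = 2), a ratio of 0.621. The two-sided exact permutation test over the libraries gave p = 0.333, the smallest that 2 hearts against 2 allow, and 0.333 after Benjamini-Hochberg adjustment over the 2 tests made. Relative to the length of the lists the gap was smaller. Per 10000 regions called in a library, the loci held 22.3, 24.2, 19.3 and 20.6 (ratio of means 0.855, exact permutation p = 0.333), a scaling chosen after seeing the data.

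Cacna1c had 20 and 28 regions in the WT hearts and 11 and 17 in the edKO hearts, Slc8a1 12 and 14 against 7 and 3, Jph2 12 and 10 against 7 and 6, Casq2 6 and 6 against 4 and 2, and Trdn 5 and 4 against 2 and 2. At Ryr2 the counts were 12 and 17 against 11 and 11. In these 6 of the 8 genes with regions neither edKO heart reached the lower WT count (75%), against 40.1% of the 6136 protein-coding genes with at least 5 regions. Those genes were not matched to the members in length or in number of regions. At Pln and Atp2a2 the groups overlapped.

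Both WT hearts called 55 of the regions, and 16 of them (29.1%) were WT-only, that is, called in neither edKO heart, against 19.4% of all such regions in the genome and 17.7% of those within 20 kb of a protein-coding gene. The members' regions lay mostly inside genes: 39 of the 55 (70.9%) overlapped a gene body and no gene start or end, where 35.4% of all such regions in the genome did so. Among those 39, 14 (35.9%) were WT-only, against 28.7% of such regions in the genome. Among the remaining 16, 2 (12.5%) were WT-only, against 14.2% of the remaining regions in the genome. With every list shortened to the length of the shortest, 10 of 46 (21.7%) were WT-only against 10.6% of all regions, and with −log10 p of at least 10 asked of every peak, 6 of 31 (19.4%) against 21.6%. Over 3 hearts, with 1 left out, the count was 47 without WT 1 (51.1% against 34.2% of all regions) and 34 without WT 2 (43.6% against 30.4%). The gap was narrower without edKO 1 (23, 41.8% against 35.9%) and without edKO 2 (17, 30.9% against 24.6%).

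The 16 WT-only regions were spread over Cacna1c (6), Slc8a1 (3), Ryr2, Trdn and Jph2 (2 each) and Casq2 (1). Their −log10 p ran from 5.0 to 15.65 in the WT hearts and their summit pileup from 11 to 33. Their median strength, the mean percentile of −log10 p within the lists that called them, was 36.6, against 67.4 for the members' regions called in all 4 hearts and 31.9 for all WT-only regions in the genome.

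At Cacna1c the strongest WT-only region lay 464.3 kb into the gene (118732013 to 118732272), at −log10 p of 7.48 and 12.0 in the WT hearts. The next lay before the gene start (119201610 to 119201883), at 7.92 and 10.5, and 350.4 kb into the gene (118845896 to 118846169), at 12.9 and 5.61. The one before the Cacna1c start lies inside Dcp1b and cannot be ascribed to 1 of these genes by position. The WT-only regions of Slc8a1 all lay inside the gene, at 8.11 and 15.65 (81481834 to 81482373), 7.75 and 12.45 (81538441 to 81538767) and 5.0 and 11.95 (81469058 to 81469424).

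At Jph2, the tether of the membranes, the WT-only regions stood at 11.35 and 13.6 (163340349 to 163340601), with the highest strength of the 16, a percentile of 51.3, and at 7.32 and 7.53 (163386810 to 163387173). Those of Ryr2 lay 3583 bp beyond the gene (11549121 to 11549516), at 8.78 and 12.1, and inside it (12033342 to 12033582), at 8.90 and 8.94. Besides its start, Trdn had a WT-only region 170.6 kb into the gene (33253965 to 33254251), at 10 and 9.40. That of Casq2 lay 25.96 kb into the gene (102112220 to 102112539), at 8.96 and 10.8.

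A further 8 regions had a call in each WT heart and in 1 edKO heart. In 7 of them (87.5%) edKO 2 was the heart without a call, against 76.2% of such regions in the genome. The exception was at Atp2a2 (122509650 to 122510165), which lacked a call in edKO 1 and stood at 14.9 (WT 1), 31.25 (WT 2) and 9.26 (edKO 2). The 69 regions called in a single library came from WT 1 (18), WT 2 (31), edKO 1 (7) and edKO 2 (13). These are 26.1, 44.9, 10.1 and 18.8% of the 69, where the libraries gave 23.5, 35.7, 11.6 and 29.1% of all such regions in the genome. Their median strength was a percentile of 18.3.

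**Figure D5:**
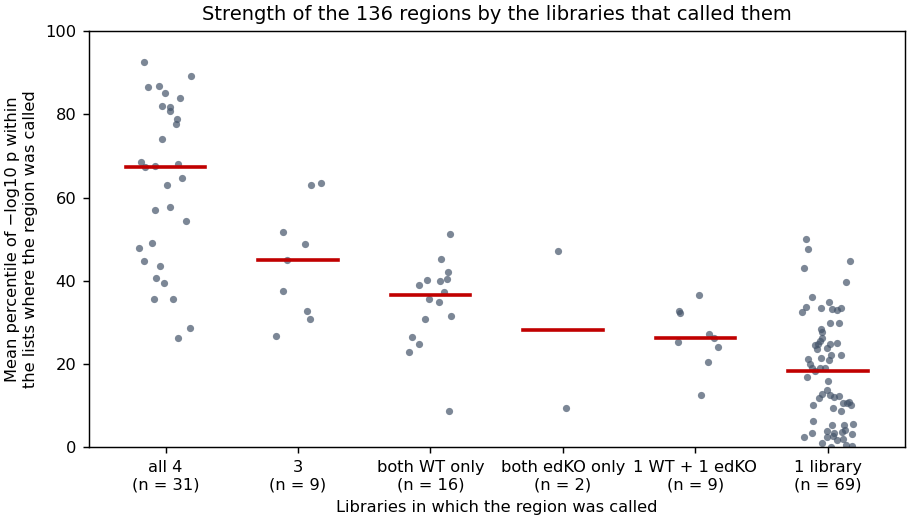
Each dot is 1 of the 136 regions, placed by the mean percentile of its −log10 p within the lists that called it (vertical axis) and grouped by those libraries, with red lines at the medians. Regions called in all 4 hearts have a median of 67.4, WT-only regions 36.6 and regions of 1 library 18.3.

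In the reverse direction, 2 of the 34 regions called in both edKO hearts (5.88%) were called in neither WT heart, against 1.35% of all such regions. Both were at Ryr2, the calcium release channel. One lay before the gene, 7887 bp outside it (12114832 to 12115173), at −log10 p of 10.95 (edKO 1) and 7.74 (edKO 2), with fold enrichments of 6.07 and 4.79. This region was already known from earlier results on these data when the genes were chosen. The other lay 214.9 kb into the gene (11891898 to 11892193), at 5.36 and 4.92, percentiles of 9.71 and 9.10 in the 2 lists. With −log10 p of at least 5 asked of every peak 1 of the 2 was left, and with at least 10 none. With every list shortened to the length of the shortest, 3 of 34 were edKO-only, against 3.85% of all regions. Of these, 2 were at Ryr2 and 1 at Cacna1c. With 1 heart left out the count was 15 of 54 without edKO 1 (24.2% of all regions), 9 of 51 without edKO 2 (10.1%), 2 of 34 without WT 1 (2.81%) and 3 of 35 without WT 2 (3.61%).

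The 31 regions called in every heart allowed a comparison of rank. Their median percentile of −log10 p was 71.6 and 73.5 in WT 1 and WT 2 and 64.35 and 59.1 in edKO 1 and edKO 2, a difference of 10.8 (exact permutation p = 0.333, adjusted p = 0.333 over the 2 tests). Over all 16568 regions called in every heart the medians were 76.1, 78.2, 69.4 and 69.1. Ranks from lists of unequal length do not show a change, and with lists of equal length the members' difference was 0.494 (exact permutation p = 1).

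A list of 36 other genes of calcium handling, regulation and store-operated entry was taken with the same flank. Their loci held 247 regions outside those of the 9 members. The WT hearts shared 143 of these, of which 27 (18.9%) were WT-only, near the 19.4% of all regions. The edKO hearts shared 86, of which 0 were edKO-only, against 1.35% of all regions. Gene starts were called in all 4 hearts for 21 of the 36 and in none for 8. The only WT-only start was that of Hrc, the histidine-rich calcium-binding protein of the store, at −log10 p of 15.0 and 17.8. Chosen for having the most WT-only regions in the list, Akap6, which anchors protein kinase A near the ryanodine receptor, had 4 WT-only regions of the 10 that the WT hearts shared, and Cacnb2, the beta subunit of the channel, 3 of 8. Among all regions that the WT hearts shared, 19.4% were WT-only. Among those inside a gene and over no gene start or end the share was 28.7%. The counts of Akap6 and Cacnb2 were instead taken over whole loci with flanks. That of Cacnb2 includes its start, whereas no region was called over the start of Akap6.

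By numbers of regions called in the 4 libraries alone, the protein-coding gene most like Cacna1c was Dst (19, 26, 12 and 12 in WT 1, WT 2, edKO 1 and edKO 2, a Euclidean distance of 5.57), that most like Slc8a1 was Maml2 (12, 13, 6 and 4, distance 1.73), and that most like Jph2 was Stk39 (12, 10, 7 and 6, distance 0). For Ryr2 the nearest was Foxp1 (13, 15, 10 and 10, distance 2.65), with 1 further gene at the same distance. Genes with the same 4 counts numbered 45 for Pln, 13 for Trdn and 3 for Casq2. For Atp2a2 the nearest was Fam189a2 (6, 8, 5 and 8, distance 1.41), with 4 further genes at the same distance.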

How the data were processed

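Open chromatin was measured by ATAC-seq in 4 hearts, with a mean depth of 25 M paired-end reads per library per the labels' protocols. MACS2, Bowtie2, SAMtools, cutadapt, bcl2fastq and CASAVA are named in the submitters' processing notes, as are the builds GRCm38 and mm10. Tool versions, any Tn5 shift and the handling of duplicate and mitochondrial reads were not given in the sources used here. The authors deposited 1 peak list per library. For each peak it gives the summit's fold enrichment (a ratio to the local background of that library), the −log10 p and −log10 q-value, a deposited score (10 times the −log10 p, not used) and the summit position. The lowest deposited −log10 p was 3.00 to 3.04. These values are the authors'.

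From them regions were merged across the genome (overlap of at least 1 bp), percentiles of −log10 p were taken within each list, and the summit pileup and background were solved from fold and p under a Poisson tail, with a whole-number pileup within 0.001 for at least 99.986% of peaks. The lowest recovered background, which follows depth, was 1.81 (WT 1), 1.80 (WT 2), 1.51 (edKO 1) and 1.92 (edKO 2). Gene positions and start windows came from RefSeq tables of GRCm38.p6. All 9 members and all 36 other listed genes were found. Where a gene had no start window, both its ends stood for the start. Gene tables without exons were used, so exons and introns were not told apart. Merging and calling were tested on simulated data. Single values were compared by exact permutation tests over the libraries, two-sided. Alternatives changed the region definition, overlap, threshold, list length and flank, or left out a heart. Regions were named by rule: the gene start, the strongest region called in all 4 hearts, up to 3 WT-only regions per gene and every edKO-only region. Others were named after their values were seen. Other listed genes were named for a WT-only start or the most WT-only regions, and the genes tied for the third place are not reported here. The members and lists were chosen with earlier results of these data known. Computation used Python 3.11.15, pandas 2.3.3, SciPy 1.17.1 and matplotlib 3.10.9.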

Additional observations from a re-analysis of the deposited data

How the results depend on the processing

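No alternative reversed the sign of the difference in regions called per library (32.0 regions, WT minus edKO) or in median percentile, but its size rested on the lists: with lists of equal length it was 5.0 regions, with −log10 p of at least 10 it was 18.5, and leaving out 1 heart it ran from 24.5 to 39.5. The difference in median percentile (10.8) was 0.494 with lists of equal length. The count of 16 WT-only regions was 10 with lists of equal length and 6 with −log10 p of at least 10. Leaving out 1 heart, which asks for fewer libraries, gave 17 to 47, with 47 without WT 1, 34 without WT 2, 23 without edKO 1 and 17 without edKO 2. The 2 edKO-only regions were 1 with −log10 p of at least 5, 0 with at least 10, 1 with no flank and 3 with lists of equal length. Leaving out 1 heart, they were 2 to 15 (3 without WT 2, 15 without edKO 1 and 9 without edKO 2). The cause of these shifts was not tested beyond the settings' own construction. Taking the hearts that share a number as pairs (replicate block) left the difference at 32.0 regions with an exact permutation p of 0.5, the smallest that 2 pairs allow. The labels do not say that a number pairs hearts. Of 99 values per direction for single genes, 24 WT-only and 13 edKO-only counts moved by over 1.5 times or to or from 0. Counts that stayed at 0, as those of Sln did in every setting, are among the unmoved ones. Hearts are few and no signal is given where no peak was listed, so a missing call does not show closed chromatin.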
